A study of Mus musculus with 2 samples.

Results

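The antioxidant and glutathione genes are the enzymes and regulators that keep superoxide, peroxides and reactive metals in check, and here they were compared between cultured marrow cells of Cpdm and wildtype mice. The set was chosen by gene symbol. It takes the superoxide dismutases, catalase, the families named Gpx and Prdx, the thioredoxins and their reductases, the enzymes that make and recycle glutathione, the glutathione S-transferases of the alpha, mu, pi, theta, omega and kappa classes, and Srxn1, Hmox1, Nqo1, Nfe2l2, Keap1, Slc40a1, Mt1 and Mt2. A probe set, a group of array probes against 1 transcript, was a member if the platform annotation gave it exactly 1 of these genes. This gave 93 probe sets for 51 genes, out of 34945 probe sets and 18193 genes in all. Peroxiredoxin 1 is not a member, because its 5 probe sets are also annotated to a predicted gene.

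The Cpdm group is 1 culture from chronic proliferative dermatitis mice, a spontaneous mutant without functional SHARPIN, which is a subunit of the linear ubiquitin complex, and the wildtype group is 1 culture without the mutation. Per the labels both held unsorted marrow cells that grew for 10 days with ascorbic acid at 50 µg/ml, itself a reducing agent, and β-glycerophosphate at 10 mM, so both groups share this osteogenic medium and neither was treated otherwise. The sources used here give no age, strain background or number of mice per culture. RNA was hybridised to 1 Affymetrix array per genotype, so there is no replicate, no test and no error between cultures for any value below.

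Cells meet oxidants in layers. Superoxide is turned into hydrogen peroxide by superoxide dismutases, and the peroxide is removed by catalase, by glutathione peroxidases at the cost of glutathione, and by peroxiredoxins at the cost of thioredoxin. The transcription factor NRF2, encoded by Nfe2l2 and held in check by KEAP1, turns on many of these genes through antioxidant response elements when the cell is under oxidative or electrophilic stress. In bone, oxidants are made by macrophages and osteoclasts, and collagen-secreting cells also make peroxide in the endoplasmic reticulum while proteins are oxidatively folded.

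Values are MAS5 signals in arbitrary linear units, and differences are the Cpdm signal over the wildtype signal. Signals under a floor, the 40th percentile of each array (18.5 for Cpdm and 18.7 for wildtype), were raised to it. Folds against such a value are lower bounds and carry the words "at least". Where a gene had several probe sets, the one with the brightest mean log2 signal stands for it and is called the representative. The median signal of an array was 27.6 for Cpdm and 28.1 for wildtype. The spike-ins, bacterial transcripts of equal amount in both samples, averaged 0.01 ± 0.11 on the log2 ratio scale (SD over 18 probe sets), and probe sets of 1 gene differed with a robust SD of 0.32 log2 units. These are yardsticks for the arrays and not for the cultures. Sharpin read 162 in Cpdm and 197 in wildtype. The samples also stood apart in 18S ribosomal RNA, with log2 ratios between -3.75 and -2.37 over 3 control probe sets, and in sex-linked genes, with Xist at 1113 in Cpdm and 247 in wildtype and Uty at 42.9 in Cpdm and 162 in wildtype. The part of these differences in the results below was not tested.

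Few antioxidant and glutathione genes differed by 2-fold or more. Of the 51 genes, 46 were above the floor in at least 1 array and 43 in both. In the Cpdm culture 2 of them, Sod3 and Gstt3, were higher by 2-fold or more, and 3, Gpx7, Gpx8 and Gpx5, were lower by that much, which left 41 genes between. Over all 14055 measured genes, 5.84% were at least 2-fold higher, 5.98% at least 2-fold lower and 11.8% either, so the counts of 2 and 3 among 46 are near the background. The median log2 ratio was -0.06 for the members and 0.03 for all measured genes. The median size of the difference, whatever its sign, was 0.34 log2 units for the members and 0.35 for all genes, and 32 of the 46 members (69.6%) lay within 1.5-fold, against 70.8% of all genes. Just past 2-fold was Gpx8 at 2.20-fold lower, and just short of it were Txnrd3 at 1.84-fold lower, Gstp1 at 1.80-fold lower and Mt2 at 1.77-fold higher.

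**Figure D1:**
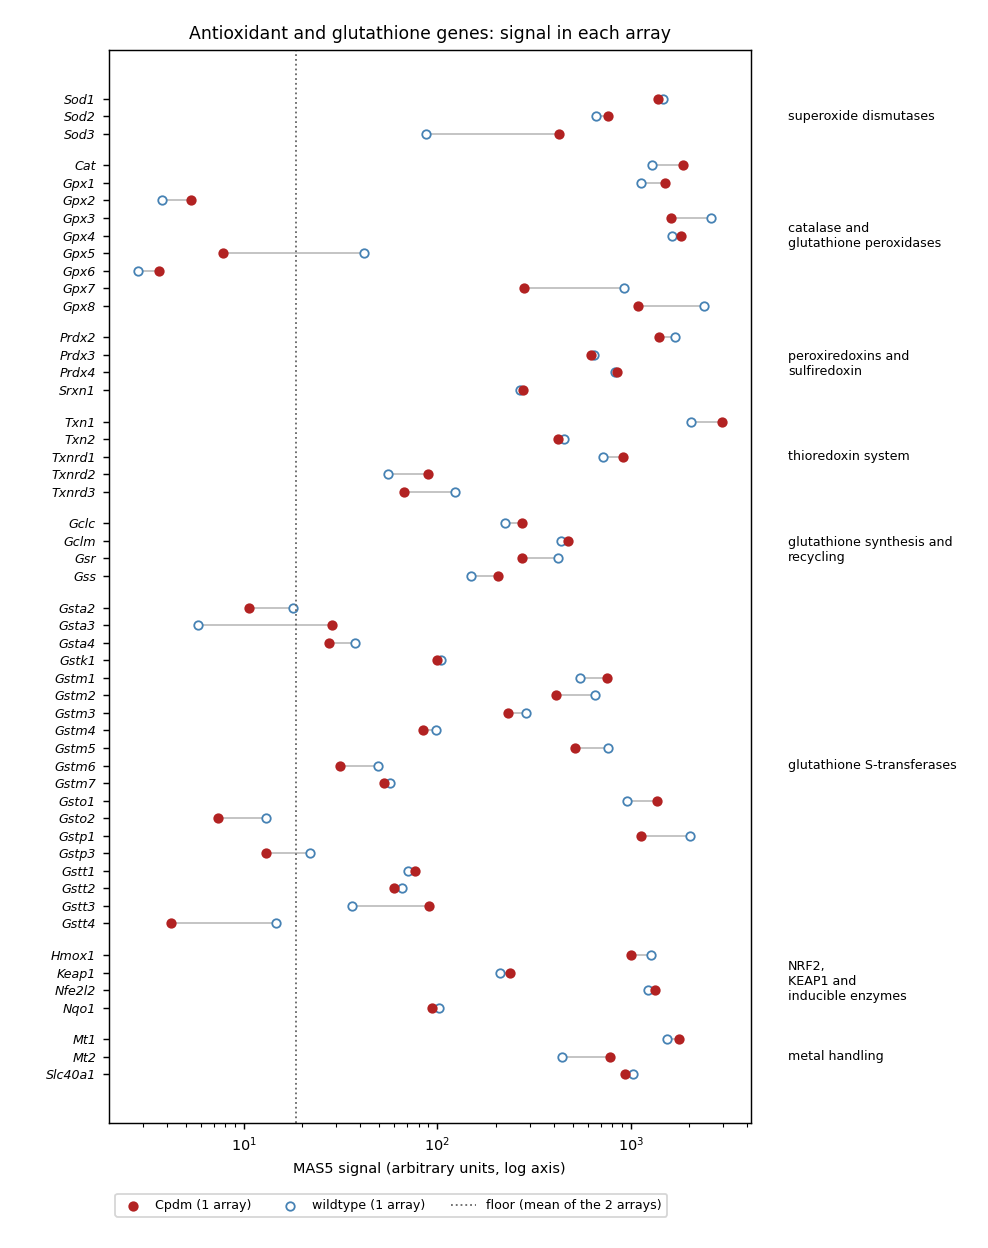
MAS5 signal of each of the 51 genes on a log axis, grouped by role, with the Cpdm array as filled red points and the wildtype array as open blue points; each point is 1 array and the dotted line is the floor. Most pairs lie close together, while Sod3 (426 in Cpdm, 87.6 in wildtype) and Gpx7 (279 in Cpdm, 928 in wildtype) stand wide apart, and the pairs left of the line are not measured.

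Among the superoxide dismutases the extracellular enzyme was much higher in the Cpdm culture and the intracellular ones were near equal. Sod3 encodes the secreted copper-zinc dismutase that binds heparan sulfate in the matrix. Its signal was 426 in Cpdm and 87.6 in wildtype, a 4.86-fold difference, and its other probe set read 111 in Cpdm and 30.6 in wildtype, a 3.64-fold difference. Of the 14055 measured genes 58, Sod3 included, had an excess this large or larger in Cpdm. Sod1, the cytosolic copper-zinc enzyme, read 1390.1 in Cpdm and 1468 in wildtype, and its 3 probe sets above the floor had log2 ratios between -0.08 and 0.15. Sod2, the manganese enzyme of mitochondria and a known NF-κB target, read 763 in Cpdm and 661 in wildtype. A pair of further bright probe sets gave log2 ratios of 0.23 and 0.51, and a dim one read 17.1 in Cpdm and 33.9 in wildtype. The excess was thus seen at Sod3 by both probe sets, while the Sod1 and Sod2 probe sets that cleared the floor on both arrays stayed under 2-fold.

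Among the glutathione peroxidases the forms of the endoplasmic reticulum and the secreted form were lower in Cpdm. Gpx7 and Gpx8 encode the reticulum peroxidases, which pass the oxidising power of peroxide to protein disulfide isomerases. Gpx7 read 279 in Cpdm and 928 in wildtype, which is 3.32-fold lower. Gpx8 read 1087 in Cpdm and 2393 in wildtype, which is 2.20-fold lower. Gpx3, the secreted plasma peroxidase, read 1616 in Cpdm and 2611 in wildtype, which is 1.62-fold lower and short of 2-fold. Each of these 3 genes has 1 probe set, so no other probe set of the gene bears on the value. Gpx5, known as an epididymal enzyme, was below the floor in Cpdm at 7.78 and at 41.9 in wildtype, which is at least 2.27-fold lower, and both signals are dim.

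Gpx1 and catalase were higher in Cpdm by less than 1.5-fold, and Gpx4 had no single direction. Gpx1, the main cytosolic selenoenzyme, read 1512 in Cpdm and 1135 in wildtype. Catalase, the peroxisomal enzyme, read 1857 in Cpdm and 1284 in wildtype by one probe set and 1570.3 in Cpdm and 1255 in wildtype by the other, which are 1.45-fold and 1.25-fold higher. Gpx4, which reduces lipid peroxides in membranes, had probe sets of opposite sign, at log2 ratios of 0.16 and -0.31. Gpx2 and Gpx6, known from gut and olfactory tissue, were below the floor in both arrays. Of 7 measured genes, catalase and the Gpx family together, 3 passed 2-fold downwards, where the share over all genes was 5.98%, and none upwards. Their median log2 ratio was -0.69, or -0.26 over the 6 genes above the floor in both arrays, which leaves out Gpx5.

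The stretches before the starts of Gpx7 and Gpx8, the pair of reticulum peroxidases that were lower together, and of Gstt3, a member that was higher, are shown from RefSeq (GRCm38.p6) as the 250 bases upstream of the annotated start, 5′ to 3′ on the gene's strand. Gpx7 lies at chr4:108406714-108406963 on the minus strand, Gpx8 at chr13:113046389-113046638 on the minus strand and Gstt3, by its most upstream start, at chr10:75781423-75781672 on the minus strand. Capitals would mark the antioxidant response element core TGACNNNGC on either strand, and these 3 windows hold none.
Gpx7: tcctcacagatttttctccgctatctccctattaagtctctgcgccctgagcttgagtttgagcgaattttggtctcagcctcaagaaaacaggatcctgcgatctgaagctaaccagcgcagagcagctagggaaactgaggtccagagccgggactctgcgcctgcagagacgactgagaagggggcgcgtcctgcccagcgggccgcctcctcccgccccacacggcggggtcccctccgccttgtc
Gpx8: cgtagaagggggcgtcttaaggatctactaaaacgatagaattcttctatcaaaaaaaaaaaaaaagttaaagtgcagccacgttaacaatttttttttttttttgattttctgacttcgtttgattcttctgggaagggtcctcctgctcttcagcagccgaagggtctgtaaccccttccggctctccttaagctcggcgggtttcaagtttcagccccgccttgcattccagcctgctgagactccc
Gstt3: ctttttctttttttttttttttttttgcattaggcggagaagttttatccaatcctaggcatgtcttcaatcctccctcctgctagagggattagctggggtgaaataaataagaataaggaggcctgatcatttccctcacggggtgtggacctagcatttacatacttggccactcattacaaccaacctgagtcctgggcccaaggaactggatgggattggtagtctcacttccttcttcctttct
The windows also differ in make-up, with 60.4% G and C before Gpx7, 44.8% before Gpx8 and 43.6% before Gstt3, where the median over all windows was 52.4%. The AP-1 site, searched as TGACTCA or TGAGTCA, is in none of the 3, and the metal response element core, searched as TGCACNC or TGCGCNC on both strands, occurs once before Gpx7. That core was found in 21.4% of all 32851 windows.

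Peroxiredoxins use thioredoxin to reduce peroxides, and the members Prdx2, Prdx3 and Prdx4 were near equal in the cultures. No probe set in the set stood for Prdx5 or Prdx6. Prdx2, a cytosolic form, read 1408 in Cpdm and 1701 in wildtype, and Prdx3, the mitochondrial form, read 624 in Cpdm and 648 in wildtype. Prdx4, the form of the endoplasmic reticulum, read 847 in Cpdm and 825 in wildtype, and its other probe sets above the floor had log2 ratios of -0.36 and -0.17. No difference of the size at Gpx7 and Gpx8 was seen at this peroxidase of the same compartment. Srxn1, sulfiredoxin, which repairs over-oxidised peroxiredoxins and is a well known NRF2 target, read 279 in Cpdm and 268 in wildtype, with other probe sets on both sides of 0. All 4 genes, Srxn1 included, lay within 1.5-fold by their representative probe sets, with log2 ratios between -0.27 and 0.06. Over all measured genes 70.8% lay within 1.5-fold. The 5 probe sets shared by Prdx1 and a predicted gene had log2 ratios between -0.07 and 0.80.

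No gene of the thioredoxin system passed 2-fold by its representative probe set, while single further probe sets of the 3 reductases did. Over all measured genes 11.8% passed 2-fold either way, so none among 5 genes is near that share. Txn1, the cytosolic thioredoxin, read 2952 in Cpdm and 2042 in wildtype, whereas a dimmer probe set read 76.5 in Cpdm and 92.5 in wildtype. Txn2, its mitochondrial partner, read 422 in Cpdm and 452 in wildtype. Among the reductases that recharge thioredoxin, the cytosolic Txnrd1 read 907 in Cpdm and 719 in wildtype, but a second Txnrd1 probe set read 3.99 in Cpdm and 40.3 in wildtype, which is at least 2.18-fold lower. Probe sets of Txnrd1 thus disagree in direction. The mitochondrial Txnrd2 read 89.5 in Cpdm and 55.3 in wildtype, and all 4 of its probe sets were higher in Cpdm, by 1.10-fold to 2.25-fold. Txnrd3, known mainly from testis, read 67.3 in Cpdm and 124 in wildtype, which is 1.84-fold lower, and its other probe sets were 1.78-fold and at least 2.17-fold lower.

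In glutathione metabolism Gclm and Gss were slightly higher and Gsr was lower in the Cpdm culture, all under 2-fold by every probe set. Gclc and Gclm encode the catalytic and modifier subunits of glutamate-cysteine ligase, the limiting step of glutathione synthesis. Gclc read 274 in Cpdm and 223 in wildtype, against 91.1 in Cpdm and 94.5 in wildtype by its other probe set, and Gclm read 473 in Cpdm and 435 in wildtype. Gss, glutathione synthetase, read 207 in Cpdm and 149 in wildtype, and was 1.39-fold and 1.52-fold higher by its probe sets. Gsr, the reductase that regenerates glutathione from its disulfide, read 274 in Cpdm and 422 in wildtype, with both of its probe sets lower by nearly the same amount, 1.54-fold and 1.52-fold.

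**Figure D2:**
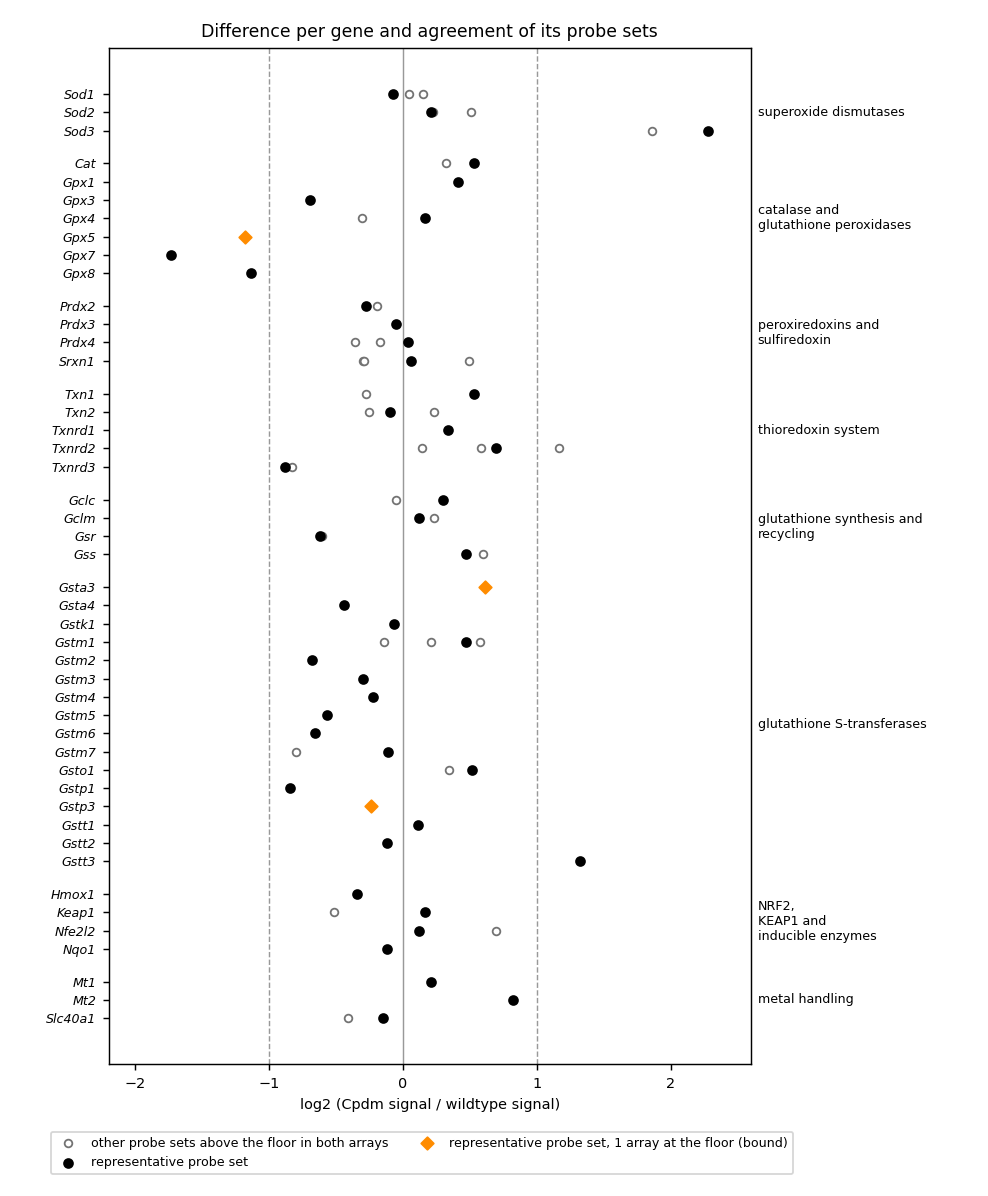
Log2 ratio of the Cpdm over the wildtype signal for the 46 measured genes, by role, with the representative probe set in black, a bound where 1 array lay at the floor as an orange diamond, and further probe sets that cleared the floor on both arrays as open circles. The dashed lines are 2-fold, and Sod3, Gstt3, Gpx7, Gpx8 and Gpx5 are the genes whose representative probe set lies beyond them. Of the open circles, 1 of Sod3 and 1 of Txnrd2 also lie beyond.

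Glutathione S-transferases join glutathione to reactive compounds, and 1 of them, Gstt3, passed 2-fold. Of 19 genes 16 were measured, 1 was at least 2-fold higher and none lower, and 11 lay within 1.5-fold. Over all measured genes 5.84% were at least 2-fold higher, 5.98% at least 2-fold lower and 70.8% within 1.5-fold. The counts among the transferases are near these shares. The log2 ratio was below 0 for 11 of the 16, against 47.6% of all measured genes, and the median was -0.17, against 0.03 over all genes. Gstt3, of the theta class, read 90.8 in Cpdm and 36.3 in wildtype, which is 2.50-fold higher by its 1 probe set. The other measured theta genes, Gstt1 and Gstt2, had log2 ratios of 0.11 and -0.12. The wildtype signal of Gstt3 lies near the floor, so the size of this fold is uncertain.

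In the mu class, a cluster of related genes on chromosome 3, all 7 genes were measured, none passed 2-fold and 5 lay within 1.5-fold. The log2 ratio was below 0 for 6 of the 7. Over all measured genes 11.8% passed 2-fold either way, 70.8% lay within 1.5-fold and 47.6% were below 0. Gstm2 read 408 in Cpdm and 655 in wildtype, Gstm5 read 514 in Cpdm and 763 in wildtype, and Gstm6 read 31.3 in Cpdm and 49.5 in wildtype, with folds of 1.60, 1.48 and 1.58 lower. Gstm3, Gstm4 and Gstm7 had log2 ratios between -0.30 and -0.11 by their representative probe sets. A second Gstm7 probe set read 32.0 in Cpdm and 55.6 in wildtype, which is 1.74-fold lower. Gstm1 was higher by its representative probe set, at 757 in Cpdm and 545 in wildtype, and its other probe sets gave log2 ratios of 0.58, 0.21 and -0.14. Probes for related Gstm genes can share targets, which makes the split between them uncertain.

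Gstp1, the pi-class enzyme, read 1129 in Cpdm and 2028 in wildtype, which is 1.80-fold lower by its 1 probe set. Mouse Gstp1 has a near-identical neighbour, Gstp2, which these probes may not separate. Gsto1, of the omega class, read 1367 in Cpdm and 956 in wildtype, and both of its probe sets were higher, by 1.43-fold and 1.27-fold. Gsta4, which clears the lipid aldehyde hydroxynonenal, read 27.7 in Cpdm and 37.6 in wildtype. Gstk1 was near equal, at 99.2 in Cpdm and 104 in wildtype. Gsta3 and Gstp3 were above the floor in 1 array each, at 28.6 in Cpdm and 5.78 in wildtype for Gsta3 and at 13.0 in Cpdm and 21.9 in wildtype for Gstp3, and Gsta2, Gsto2 and Gstt4 were below it in both.

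Nfe2l2 and Keap1, and Nqo1 and Hmox1 among the inducible enzymes, lay within 1.5-fold by their representative probe sets. Nfe2l2 read 1337 in Cpdm and 1232 in wildtype. A dim second probe set read 34.0 in Cpdm and 21.0 in wildtype. Keap1 read 238 in Cpdm and 212 in wildtype, with a second probe set of opposite sign at 32.8 in Cpdm and 46.7 in wildtype. The quinone reductase gene Nqo1, a standard readout of NRF2 activity, read 93.7 in Cpdm and 102 in wildtype. Hmox1, haem oxygenase, which frees iron from haem and is induced by NRF2 and by haem itself, read 1006 in Cpdm and 1274 in wildtype. Among 7 members that are textbook NRF2 targets, Nqo1, Hmox1, Gclc, Gclm, Srxn1, Txnrd1 and Gsr, none passed 2-fold by its representative probe set, 6 lay within 1.5-fold, and the median log2 ratio was 0.06. Over all measured genes 11.8% passed 2-fold, 70.8% lay within 1.5-fold and the median was 0.03. The list of 7 is not complete. Gstp1, Gstm1 and Txn1, also often counted as NRF2 targets, had log2 ratios of -0.84, 0.47 and 0.53. NRF2 protein was not measured.

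The windows before Gclm and Nfe2l2 are shown because they carry the antioxidant response element core, in capitals, in genes whose signals were near equal. Gclm lies at chr3:122245307-122245556 on the plus strand, and its match reads on the opposite strand, 134 to 126 bases before the start. Nfe2l2 lies at chr2:75704664-75704913 on the minus strand, and its match lies 240 to 232 bases before the start.
Gclm: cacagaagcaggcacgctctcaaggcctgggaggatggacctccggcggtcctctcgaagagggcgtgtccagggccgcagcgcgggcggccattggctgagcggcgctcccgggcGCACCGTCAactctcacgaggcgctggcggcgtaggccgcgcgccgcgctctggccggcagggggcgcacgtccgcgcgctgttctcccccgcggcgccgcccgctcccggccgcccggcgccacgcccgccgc
Nfe2l2: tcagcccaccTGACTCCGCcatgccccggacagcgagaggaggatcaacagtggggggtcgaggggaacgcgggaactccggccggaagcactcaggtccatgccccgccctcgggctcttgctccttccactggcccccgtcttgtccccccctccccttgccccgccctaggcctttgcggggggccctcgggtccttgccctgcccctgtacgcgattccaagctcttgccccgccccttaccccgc
RefSeq windows were matched by symbol for 44 of the 51 genes. Sod3, Hmox1, Gclc and Slc40a1 are among those without a window, so no motif was searched before them. The antioxidant core occurred in the window of 8 of the 44, Gclm, Gsta3, Gstm5, Gstm7, Mt2, Nfe2l2, Sod1 and Txnrd1. It occurred in 11.5% of all 27025 genes of the table, counted in the same way over all windows of a gene. The AP-1 site was found in the windows of Gstm5, Gstp1, Mt2 and Srxn1 and of 5.16% of all genes; an AP-1 site followed by GC is also a match to the antioxidant core. Of the 8 genes with the antioxidant core none passed 2-fold by its representative probe set, where the value for Gsta3, at least 1.53-fold higher, is a bound. Over all measured genes 11.8% passed 2-fold either way, so none among 8 is near that share. A match to these letters is a description of the window and not a bound site.

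The metal-handling members differed by less than 2-fold. Metallothioneins bind zinc and copper and scavenge radicals. Mt2 read 782 in Cpdm and 442 in wildtype, which is 1.77-fold higher by its 1 probe set. Mt1 read 1777 in Cpdm and 1535 in wildtype by a probe set that can bind related transcripts, and its other probe set was below the floor in both arrays. Slc40a1, ferroportin, the iron exporter of macrophages, read 930 in Cpdm and 1031 in wildtype by one probe set and 278 in Cpdm and 369 in wildtype by the other.

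**Figure D3:**
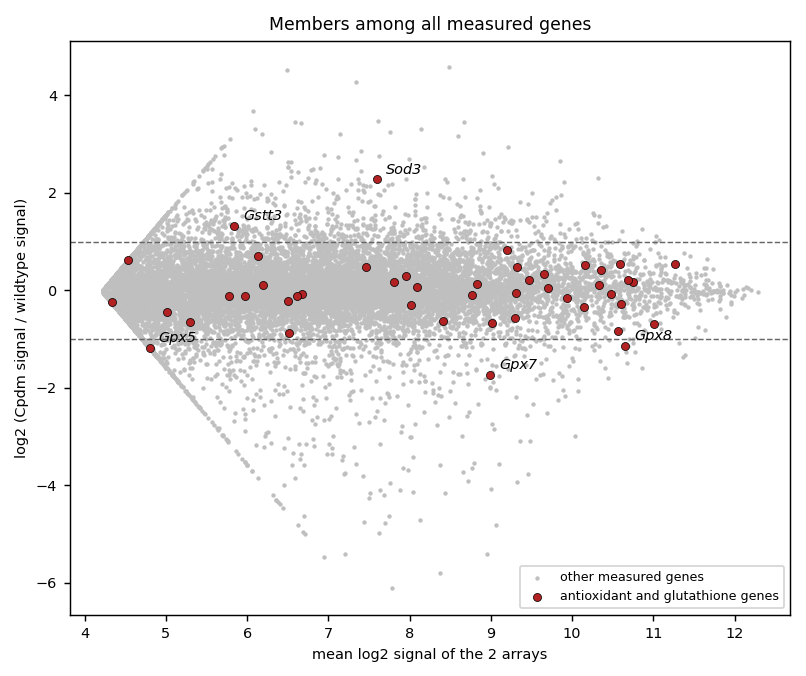
Log2 ratio of the Cpdm over the wildtype signal against the mean log2 signal for all 14055 measured genes (grey), with the 46 measured antioxidant and glutathione genes in red; dashed lines are 2-fold. The median size of the difference was 0.34 for the red points and 0.35 for all genes, and the 5 named genes are those beyond 2-fold.

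Probe sets of the same gene could be compared for only some of the members. For 22 members more than 1 probe set cleared the floor on both arrays, and the median disagreement between the brightest pair was 0.23 log2 units, against 0.31 over 5250 genes. For 9 of the 22, Gclc, Gpx4, Gstm1, Keap1, Prdx4, Sod1, Srxn1, Txn1 and Txn2, probe sets lay on both sides of 0, so their direction depends on the probe set. Fewer of the bright genes passed 2-fold. Of 744 genes with a mean signal of at least 1000, 21 were at least 2-fold higher and 27 at least 2-fold lower, and of the 13 members among them 1, Gpx8, was lower and none higher.

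Redox genes outside the set, listed by their textbook roles, included a far larger deficit than any member. Of 117 genes listed, 105 had a probe set of their own and 99 were measured, of which 9 passed 2-fold upwards and 7 downwards, where the shares over all genes were 5.84% and 5.98%, and the median log2 ratio was 0.10. The largest difference was at Chac1, the enzyme that breaks down glutathione inside the cell, which read 47.9 in Cpdm and 882 in wildtype, 18.4-fold lower by its 1 probe set. Slc7a11, the cystine importer that feeds glutathione synthesis, read 20.2 in Cpdm and 43.0 in wildtype, near the floor, and was 2.12-fold and 1.32-fold lower by its probe sets. Slc3a2, the partner chain of that importer, read 990.1 in Cpdm and 1309 in wildtype. Abcc3, an exporter of conjugates, was 3.89-fold higher, at 392 in Cpdm and 101 in wildtype. In this group of glutathione transport and turnover 15 genes were measured, 1 higher and 2 lower by at least 2-fold.

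Of 14 measured genes listed as glutathione users 2 were at least 2-fold higher and 1 lower. The list includes Faf1 (227 in Cpdm, 238 in wildtype), which is not a glutathione enzyme. Of 9 measured genes of NADPH supply none was higher and 2 were lower. Over all measured genes 5.84% were at least 2-fold higher and 5.98% at least 2-fold lower. The glutaredoxin gene Glrx read 322 in Cpdm and 143 in wildtype, 2.26-fold higher, with 1.58-fold by its other probe set. Hpgds, a glutathione-dependent prostaglandin D synthase of blood cells, read 214 in Cpdm and 100.5 in wildtype. Gstz1, which isomerises maleylacetoacetate in tyrosine breakdown, was 2.76-fold lower, at 68.5 in Cpdm and 189 in wildtype. In NADPH supply Me1, the cytosolic malic enzyme, was 3.28-fold and 2.37-fold lower by its probe sets, and Mthfd2, a mitochondrial folate enzyme, 3.09-fold and 6.07-fold lower. Nnt, also listed under NADPH supply, read 780 in Cpdm and 393 in wildtype, which is 1.99-fold higher and just short of 2-fold. The pentose phosphate genes Pgd and Taldo1 had log2 ratios of 0.86 and 0.68, and Tkt had -0.01. None of 13 measured thioredoxin partners passed 2-fold, among them the thioredoxin inhibitor gene Txnip, at 1008 in Cpdm and 709 in wildtype.

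Over 18 measured NRF2 partners and further targets the median log2 ratio was 0.54, with 2 genes at least 2-fold higher and 1 lower. The shares over all measured genes were 5.84% and 5.98%. This list pools partners and regulators with targets, so its median does not describe NRF2 targets alone. Blvrb, a biliverdin reductase, read 1610.0 in Cpdm and 761 in wildtype, and Osgin1 read 72.2 in Cpdm and 29.5 in wildtype. Aox1, aldehyde oxidase, was 3.84-fold lower, at 52.2 in Cpdm and 200.5 in wildtype. Bach1, the repressor that competes with NRF2, and the small Maf partner genes Maff, Mafg and Mafk had log2 ratios of 0.64, 0.81, 0.57 and 0.75. Of the 18 genes 12 lay above 0 and 6 below. Those below were Aox1, Ephx1 at -0.75, Nfe2l1 at -0.68, Cbr1 at -0.37, Bach2 at -0.16 and Sqstm1 at -0.15. Genes that make superoxide or nitric oxide had a median of 0.65 over 10 measured genes, with 2 at least 2-fold higher and none lower, beside the same shares of 5.84% and 5.98%. The phagocyte oxidase genes Cybb and Cyba read 773 and 2736 in Cpdm and 419 and 1703 in wildtype, and Ncf4, a subunit of the same complex, was 2.05-fold higher. Nox4, an oxidase of stromal cells, was at 48.4 in Cpdm and below the floor in wildtype at 10.7, which is at least 2.58-fold higher, with its other probe set below the floor in both arrays.

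Of 10 measured iron and zinc genes 1 was at least 2-fold higher and 1 lower, and of 10 measured stress genes 1 was higher and none lower. Over all measured genes the shares were 5.84% higher and 5.98% lower, so counts of 1 among 10 are not far from the background. Tfrc, the transferrin receptor, read 1434 in Cpdm and 478 in wildtype, though a dim probe set of the same gene read 28.9 in Cpdm and 39.6 in wildtype. The ferritin heavy chain gene Fth1 was near equal, at 4419 in Cpdm and 4361 in wildtype, close to the top of the signal range. Slc39a14, a zinc and iron importer, was 2.68-fold lower, at 287 in Cpdm and 767 in wildtype. Sesn1, a sestrin linked to p53 and nutrient stress, was 2.84-fold higher by its brightest probe set and between 2.04-fold and at least 2.89-fold by the others.

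**Figure D4:**
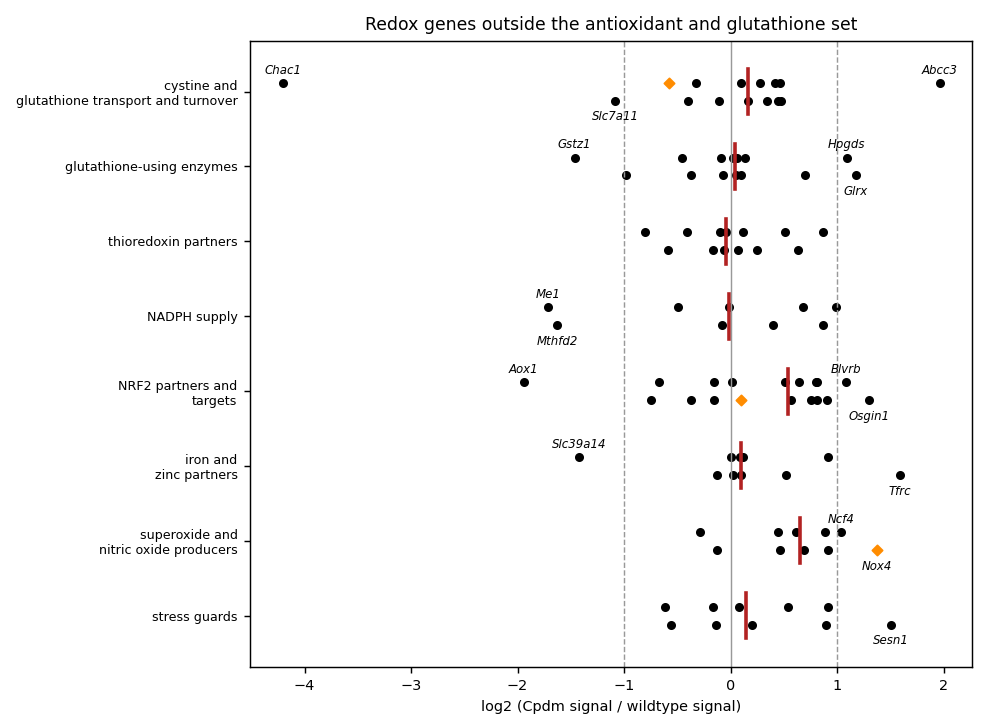
Log2 ratio of the Cpdm over the wildtype signal for 99 measured redox genes outside the antioxidant and glutathione set, 1 point per gene, by role; red bars are medians, orange diamonds are bounds and dashed lines are 2-fold. Chac1 lies far to the left at -4.20, and the medians of the NRF2 partners (0.54) and the superoxide and nitric oxide producers (0.65) lie right of 0.

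Markers of the cell types in these unsorted cultures differed too, and in bulk RNA fewer cells of a type and less RNA per cell cannot be told apart. Beside the marker counts, 5.84% of all measured genes were at least 2-fold higher and 5.98% at least 2-fold lower. Of 8 osteoblast markers measured 7 were at least 2-fold lower and none higher, with a summed signal of 4933 in Cpdm and 14955 in wildtype, Phex being below the floor in Cpdm at 9.66 and at 825 in wildtype, and Pth1r at 81.7 in Cpdm and 1460.0 in wildtype. Of 14 macrophage markers 4 were at least 2-fold higher and none lower, with a summed signal of 25565 in Cpdm and 18193 in wildtype, led by Marco at 162 in Cpdm and 7.09 in wildtype and by Cx3cr1 at 259 in Cpdm and 46.9 in wildtype. Of 8 stromal and fibroblast markers 3 were at least 2-fold higher and 1 lower, with a summed signal of 8059 in Cpdm and 4853 in wildtype, among them Cd248 at 143 in Cpdm and 1.59 in wildtype and Pdgfra at 57.0 in Cpdm and 134 in wildtype. The part of these markers in the values of Sod3, Gpx7, Gpx8, Gstt3 and the oxidase genes was not tested. Of 8 erythroid markers 5, Alas2 among them, were below the floor in both arrays, and the brightest, Epor, read 133 in Cpdm and 124 in wildtype. None of the 3 measured passed 2-fold, and the summed signal was 212 in Cpdm and 216 in wildtype. Neutrophil markers were dim as well, with Elane, Camp and Prtn3 below the floor in both arrays and a summed signal of 148 in Cpdm and 226 in wildtype. Of the 5 measured none was 2-fold higher and 1, Ltf, was at least 2.06-fold lower. Ltf was below the floor in Cpdm at 5.90 and at 38.1 in wildtype. All 5 had a log2 ratio below 0, with a median of -0.56. Of 6 adipocyte markers 4 were measured and none passed 2-fold, with a summed signal of 561 in Cpdm and 645 in wildtype. Of 6 osteoclast markers 4 were measured and none passed 2-fold, with a median log2 ratio of -0.01. Their summed signal was 1955 in Cpdm and 2883 in wildtype, a gap that lay in Ctsk, cathepsin K, at 969 in Cpdm and 1890 in wildtype, while Acp5 read 156 in Cpdm and 157 in wildtype.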

How the data were processed

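The deposited table holds MAS5 intensity on a linear scale for 45101 probe sets of each array. Per the submitters' processing notes, GCOS 1.4 and MAS5 were used. A mean trimmed by 2% at each end was 99.7 for Cpdm and 99.6 for wildtype over non-control probe sets, as global scaling gives. The sources used here state no scaling target or background settings, and the table has no detection calls. Per the labels, 5 µg of total RNA was labelled with biotin.

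Of 45037 non-control probe sets, 34945 had exactly 1 gene in the platform annotation, 932 had several and 9160 were unlisted. All 93 member probe sets matched a current mouse gene identifier, and 0 symbols changed. Python 3.11.15, numpy 2.4.6 and pandas 2.3.3 were used. Signals were floored at the 40th percentile of each array, and log2 ratios of Cpdm over wildtype were taken without further scaling. Called means at least 2-fold. The calculation was tested on simulated data with changes larger than 2-fold in bright genes. That test does not bear on 2-fold calls or on dim genes. With 1 array per genotype no test was possible, and the number of arrays limits the precision. Scaling, floor, choice of probe set, an added constant and the fold limit were varied. The members and lists were chosen with earlier results of these data known. Every member is accounted for; other redox genes were named if past 2-fold, with some of known role added after their values were seen, and about 2 markers per list by size.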

Additional observations from a re-analysis of the deposited data

How the results depend on the processing

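Under 10 alternatives of scaling, floor, probe set choice and an added constant, the count of members at least 2-fold higher in Cpdm was 2 in each, and the count at least 2-fold lower was between 2 and 4. With a limit of 1.5-fold 5 members were higher and 9 lower, and with a limit of 3-fold 1 was higher and 1 lower. The member median stayed between -0.09 and -0.01 and that of all measured genes between 0.01 and 0.06. Sod3 ranged from 2.07 to 2.31, Gstt3 from 1.03 to 1.35, Gpx7 from -1.74 to -1.68 and Gpx8 from -1.14 to -1.10 on the log2 scale, each past 2-fold under every setting. Gpx5 was -2.43 with the 20th percentile floor and without a floor, and was not measured with the 60th percentile floor; its size is set by the floor. Txnrd1 was -0.40 with the mean over probe sets, in which a dim probe set counts fully. No called member changed sign. The other redox genes had between 6 and 11 higher and between 6 and 8 lower. Over single members, 441 of 454 values stayed within the probe-set SD of 0.32. Many of these values could hardly move, so this share is no measure of stability. Scaling by medians or spike-ins shifts all genes by a small common amount. A floor does not alter bright genes, and the choice of probe set cannot alter a gene with 1 probe set. Dim signals near the floor, and the lack of any replicate, limit what can be said of single genes.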
